A study of Homo sapiens with 18 samples.

Results

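10 genes of the Polycomb and BAP1 complexes were examined in uveal melanoma (UM) cells treated with inhibitors of the histone methyltransferase EHMT2. The genes were chosen by name and not by a measured value. They were EZH2, EZH1, EED, SUZ12 and JARID2 of Polycomb repressive complex 2 (PRC2), RING1 and BMI1 of Polycomb repressive complex 1 (PRC1), and BAP1, ASXL1 and ASXL2 of the Polycomb repressive deubiquitinase (PR-DUB). All 10 symbols were found among the 26475 gene symbols of the count table, and all 10 passed the filter on low counts in each of the 9 comparisons.

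Mel92.1 and MP41 are human UM cell lines, and every group of the experiment was 1 of these lines under 1 condition. The cells received the vehicle DMSO, UNC0642 or A366, and RNA was taken after 48 h. Both inhibitors were used at 1 μM, and both act on EHMT2 (also called G9a) and on its relative EHMT1. The labels name no allele or further agent in any group, and the 6 groups held 3 libraries each. The series text calls them biological replicates without saying that they came from separate cultures, so p-values measure the spread between these libraries.

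PRC2 places methyl groups on lysine 27 of histone H3, a mark of silenced genes, through its catalytic subunit EZH2 or EZH1. PRC1 attaches ubiquitin to lysine 119 of histone H2A through RING1 or its relative RNF2, and PR-DUB, whose enzyme is BAP1, removes that ubiquitin. In UM, loss of BAP1 is known for its link to metastasis. EHMT2 and EHMT1 methylate a different residue, lysine 9 of histone H3. The comparisons ask whether transcripts of the Polycomb machinery moved when the EHMT2 enzymes were inhibited and how they differed between the lines.

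Library totals lay between 23601156 and 62941462 counts (median 41955693). The library with the lowest total, Mel92.1 UNC0642 replicate 1, had 32.8% of its counts on 4 ribosomal RNA genes, against 3.31% in the lowest library. 4 of the 6 A366 libraries carried the genes of the other cell line than their label. In those labelled replicates 2 and 3 of either line, genes that only the labelled line expresses reached at most 0.0348% of their DMSO level, while those of the other line reached 95.2% to 121%. The study's own published list of changed genes places these 4 libraries with the line whose genes they carry. Values use that exchanged placement unless stated, so that MP41 A366 replicate 2 is the library labelled Mel92.1 A366 replicate 2. The main test results of the 10 genes that rest on the A366 libraries are also given with the libraries as labelled and without the 4 libraries. Alternative settings, such as summed symbols or an offset, are given in the exchanged placement only. 7 of 8 melanocyte markers in Mel92.1 and 8 of 8 in MP41 reached 1 CPM in every group, with summed levels from 15100 to 24400 CPM. CPM is the count of a gene per 1000000 counts of its library, scaled between libraries by TMM factors (trimmed mean of M-values). Summed fibroblast markers ran from 23.1 to 53.7 CPM, epithelial markers from 0.0805 to 2 CPM, and leukocyte markers from 10.1 to 93.8 CPM, nearly all of the last from NCAM1.

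The 10 transcripts differed widely in level, which is given here per kilobase of the longest annotated transcript (CPM per kb) as a rough scale between genes. This scale does not account for which transcripts were expressed, or for the shifts by length and GC content given below. BMI1 is ranked without the counts assigned to COMMD3-BMI1, a read-through gene described below. In Mel92.1 with DMSO, RING1, an E3 ligase of PRC1, was highest at 50.8 CPM per kb (SD 2.57, n = 3). BAP1 followed at 30.3 (SD 1.7), then BMI1 at 22.7 (SD 4.02) and SUZ12 at 18.9 (SD 2.56), whose libraries overlapped. EZH2 stood at 14.8 (SD 0.275) and ASXL1 at 14.6 (SD 1.67), which also overlapped. EED followed at 10 (SD 0.376) and JARID2 at 6.44 (SD 0.599) CPM per kb. EZH1 at 2.92 (SD 0.0658) and ASXL2 at 1.75 (SD 1.1) CPM per kb were lowest and did not separate from each other.

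The order in MP41 with DMSO began with RING1 as well, at 39 CPM per kb (SD 2.02, n = 3). SUZ12 came next at 28.9 (SD 0.524), separate from BAP1 at 25.1 (SD 1.54). BAP1 overlapped EZH2 at 23.5 (SD 0.985), EZH2 overlapped BMI1 at 22.4 (SD 3.03), and BMI1 overlapped EED at 18.1 (SD 1.64). JARID2 stood at 14.1 (SD 0.357), ASXL1 at 12.6 (SD 0.571), ASXL2 at 5.53 (SD 0.329) and EZH1 at 3.4 CPM per kb (SD 0.138), each separate from the next. EZH1 was the lowest of the 10 in MP41 and next to lowest in Mel92.1.

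2 pairs of the genes are paralogues that fill the same place in a complex. Their ratios carry the same limits of the scale per kilobase. EZH2 exceeded EZH1 per kilobase in all 18 libraries, by a ratio of 5.08 on average in Mel92.1 with DMSO (5.06 to 5.1) and 6.94 in MP41 with DMSO (6.45 to 7.57). ASXL1 exceeded ASXL2, by a ratio of 10 on average in Mel92.1 with DMSO (5.5 to 13.2) and 2.28 in MP41 with DMSO (2.18 to 2.35). With A366 in MP41 the ASXL1 to ASXL2 ratio ran from 3.45 to 8.79, above the DMSO libraries of that line.

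**Figure D1:**
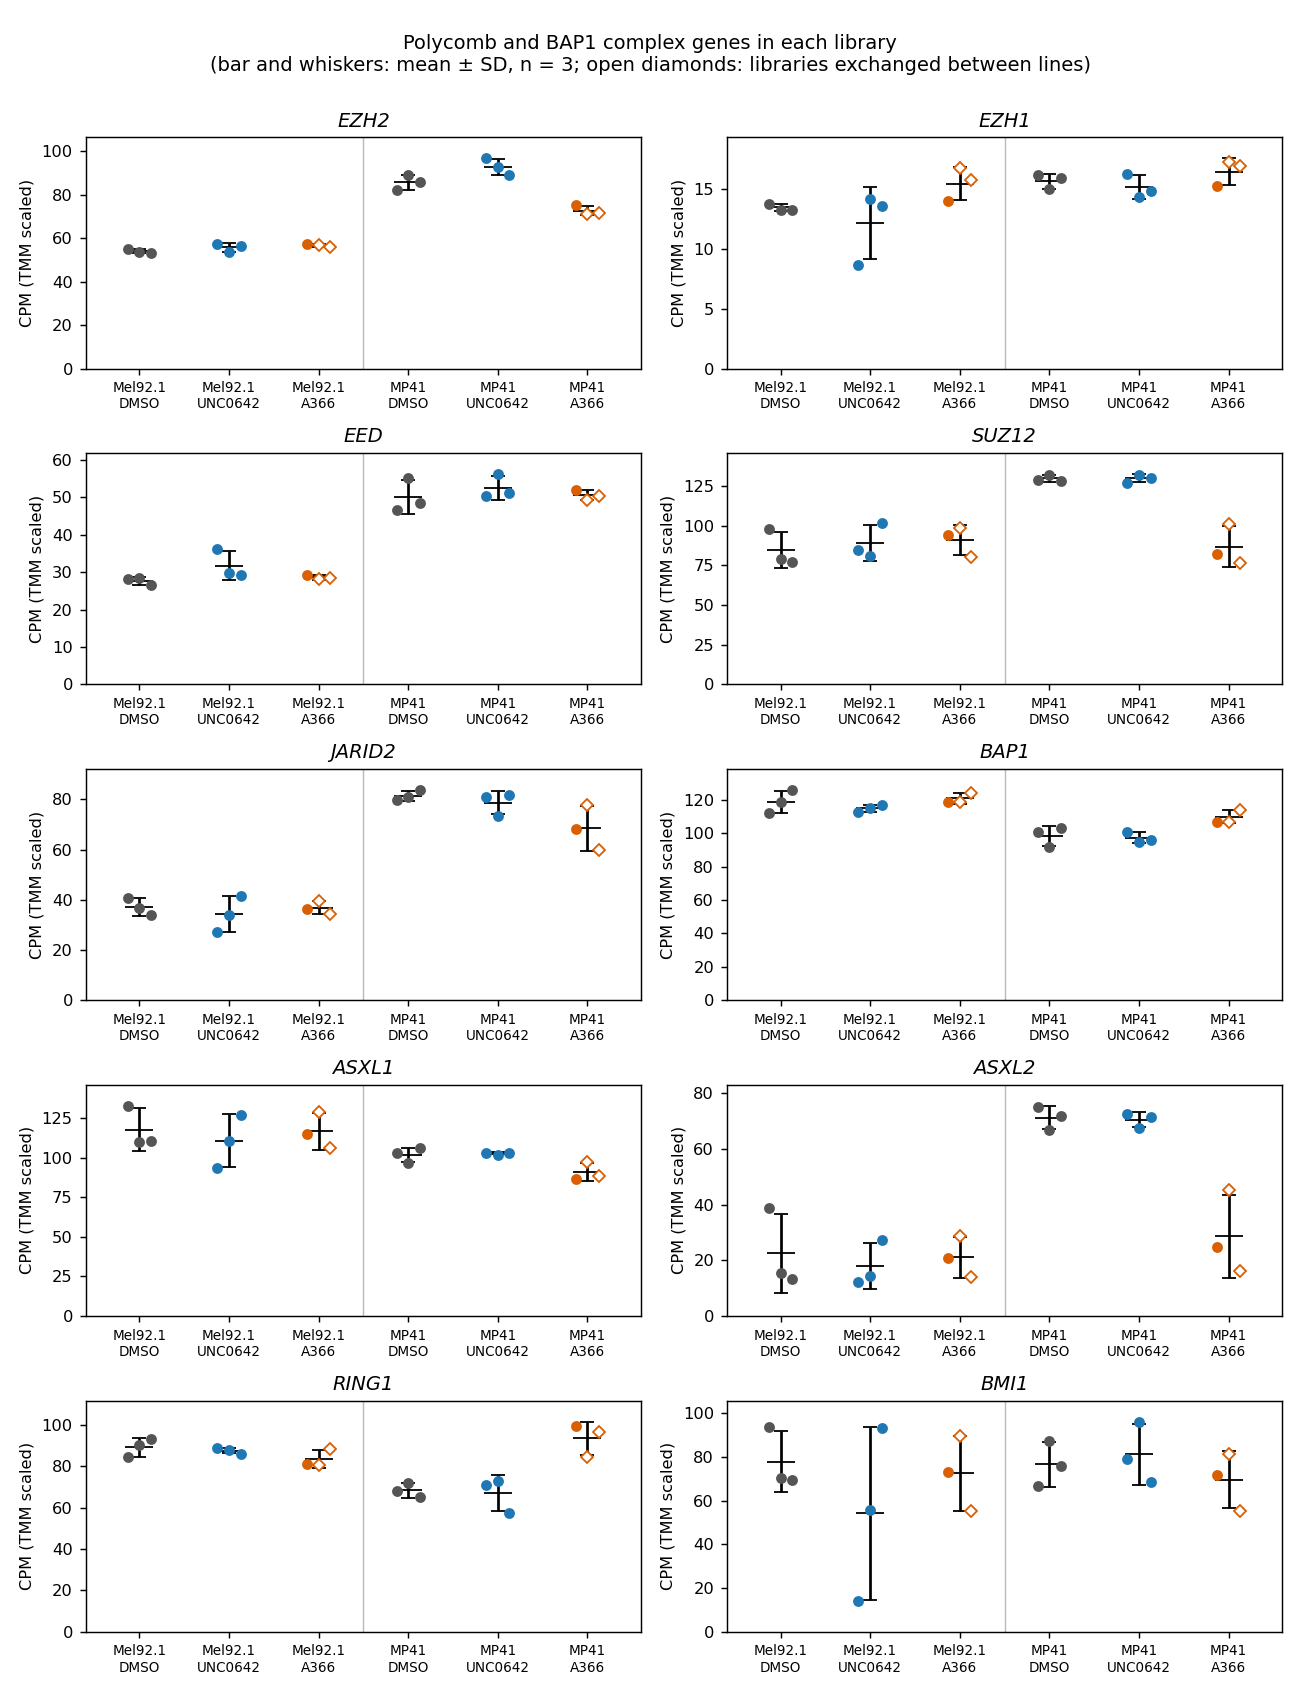
Level of each gene in each of the 18 libraries, in CPM from a zero baseline, with the groups on the horizontal axis. Points are libraries, bars and whiskers the mean ± SD of 3, and open diamonds mark the 4 A366 libraries exchanged between the lines. SUZ12 and ASXL2 were lower in the 3 MP41 A366 libraries than in any MP41 DMSO or UNC0642 library, and RING1 was higher.

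EZH2, EED, SUZ12, JARID2 and ASXL2 were lower in Mel92.1 than in MP41, and BAP1 and RING1 were higher. With DMSO, 7 of the 10 genes passed an adjusted p of 0.05 between Mel92.1 and MP41 in edgeR's quasi-likelihood test over all 18 libraries, 2 higher and 5 lower in Mel92.1, while 69.4% of all 15799 genes tested passed. The share among the 10 is thus near that of all genes. Their median log2 fold change was -0.42, beside -0.022 over all genes. In bulk RNA a smaller share of cells that express a gene cannot be told apart from less RNA per cell.

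EZH2, the main catalytic subunit of PRC2 (chr7:148807383-148884321, minus strand, hg38), measured 55.1, 53.6 and 53.2 CPM in the Mel92.1 DMSO libraries and 82.1, 89.3 and 85.8 CPM in those of MP41. The lines did not overlap, and EZH2 was lower in Mel92.1 by a log2 fold change of -0.67 (SE 0.057, adjusted p = 1.26e-08). EED, the subunit that reads the methyl mark (chr11:86244544-86278813, plus strand), measured 28.1, 28.4 and 26.5 CPM in Mel92.1 and 46.7, 55.3 and 48.6 CPM in MP41. Here too the lines stood apart, with a log2 fold change of -0.86 (SE 0.087, adjusted p = 1.03e-07). SUZ12, a scaffold without which the complex does not hold together (chr17:31937018-32001045, plus strand), measured 98, 78.8 and 77.5 CPM in Mel92.1 and 129, 132 and 128 CPM in MP41. Its log2 fold change was -0.61 (SE 0.11, adjusted p = 0.000122), with no overlap. Of 18 genes of DNA replication and cell division, 5 were higher and 9 lower in Mel92.1, beside 69.4% of all genes called. They ran from MCM2 at 1.66 and MCM4 at 1.49 to MKI67 at -4.90 and CCNE2 at -2.29. Their part in the gap of these genes was not tested.

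JARID2, an accessory subunit that helps bring PRC2 to chromatin (chr6:15246296-15522040, plus strand), had the widest gap among the PRC2 genes. It measured 40.7, 36.8 and 33.8 CPM in Mel92.1 and 79.7, 80.9 and 83.7 CPM in MP41, a log2 fold change of -1.13 (SE 0.12, adjusted p = 2.69e-07). EZH1, the second catalytic subunit (chr17:42700275-42745049, minus strand), measured 13.8, 13.3 and 13.3 CPM in Mel92.1 and 16.2, 15 and 16 CPM in MP41. These libraries did not overlap, but the log2 fold change of -0.22 (SE 0.14, adjusted p = 0.163) did not pass the test. In a fit of only the 6 DMSO libraries it passed, at -0.23 (adjusted p = 0.0358), as it did without Mel92.1 UNC0642 replicate 1, at -0.21 (adjusted p = 0.0394).

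Among the PR-DUB genes, ASXL2 was lower in Mel92.1 and BAP1 slightly higher. ASXL2, a cofactor that activates BAP1 (chr2:25733753-25878516, minus strand), measured 38.8, 15.5 and 13.4 CPM in Mel92.1 and 75.1, 66.7 and 71.7 CPM in MP41. The lines did not overlap despite the wide spread within Mel92.1, and the log2 fold change was -1.65 (SE 0.40, adjusted p = 0.00141). BAP1, the deubiquitinase itself (chr3:52401013-52410350, minus strand), measured 112, 119 and 126 CPM in Mel92.1 and 101, 91.7 and 103 CPM in MP41. BAP1 RNA was thus present in all libraries of both lines, with a log2 fold change of 0.27 (SE 0.061, adjusted p = 0.00072). ASXL1, the other cofactor of BAP1 (chr20:32358330-32439319, plus strand), measured 133, 110 and 111 CPM in Mel92.1 and 103, 96.6 and 106 CPM in MP41. The lines did not overlap, but its log2 fold change of 0.22 (SE 0.10, adjusted p = 0.0703) did not pass. It passed without any 1 of 7 libraries, with adjusted p between 0.0205 and 0.0467: Mel92.1 DMSO replicates 2 and 3, Mel92.1 UNC0642 replicates 1 and 3, Mel92.1 A366 replicates 2 and 3, and MP41 A366 replicate 2.

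Of the PRC1 genes, RING1 (chr6:33208495-33212722, plus strand) measured 84.2, 90 and 93 CPM in Mel92.1 and 67.9, 72 and 65 CPM in MP41. It was higher in Mel92.1 by a log2 fold change of 0.38 (SE 0.087, adjusted p = 0.000817), with no overlap. BMI1, a RING finger partner that raises the activity of the ligase (chr10:22321211-22331484, plus strand), measured 93.8, 70.5 and 69.4 CPM in Mel92.1 and 66.7, 87.5 and 75.9 CPM in MP41. The lines overlapped, and the log2 fold change was 0.023 (SE 0.38, adjusted p = 0.961).

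The directions of BAP1 and RING1 between the lines depended on whether the base composition and length of the transcripts were modelled. When an offset for GC content and length of the transcript was fitted in each library, BAP1 turned to -0.19 (SE 0.052, adjusted p = 0.00411) and RING1 to -0.20 (SE 0.082, adjusted p = 0.0367), so both became lower in Mel92.1. ASXL1 rose to 0.57 (SE 0.049, adjusted p = 1.07e-08). EZH2, EED, SUZ12, JARID2 and ASXL2 stayed lower in Mel92.1 under the offset, with log2 fold changes of -0.47, -0.46, -0.21, -0.97 and -0.95. 8 of the 10 genes passed, and 69.3% of all genes did. The median log2 fold change of the 10 was then -0.20, beside 0.0087 over all genes. RING1 and BAP1 are rich in G and C (61.6% and 60.4%), and EED and SUZ12 are poor in them (33% and 38%). Without the TMM factor, scaled by library size alone, BAP1 and RING1 stayed higher in Mel92.1 at 0.069 (adjusted p = 0.545) and 0.18 (adjusted p = 0.142) but did not pass.

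**Figure D2:**
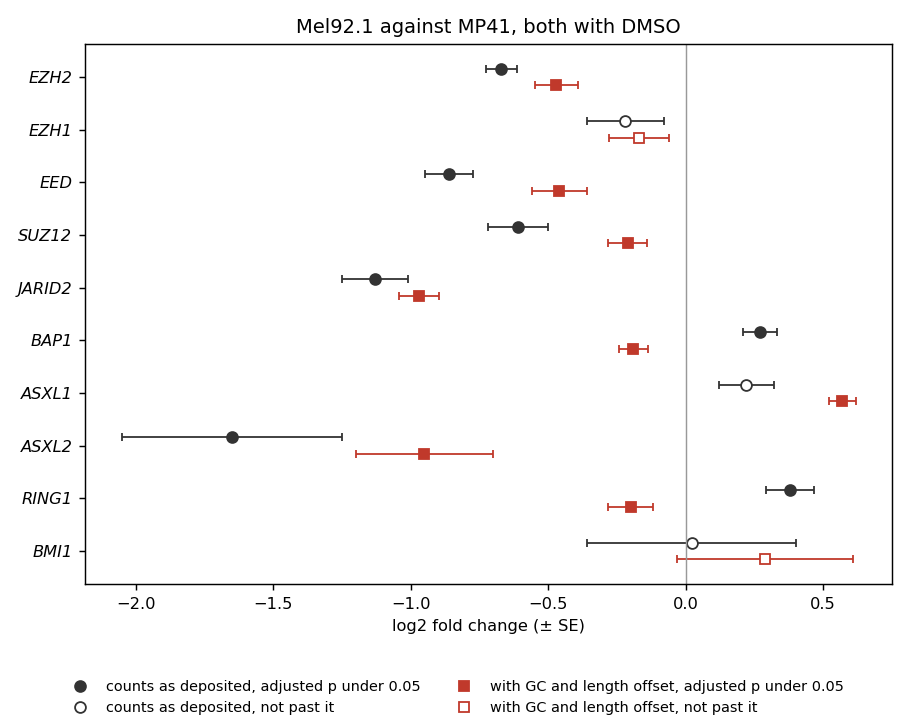
Log2 fold change of each gene in Mel92.1 against MP41, both with DMSO, with whiskers of 1 SE. Circles use the counts as deposited, squares add the GC and length offset, and filled symbols passed an adjusted p of 0.05. The PRC2 genes stay left of zero under both, while BAP1 and RING1 change sides.

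UNC0642 was compared with DMSO within each line, 9 libraries to a fit. None of the 10 genes passed in Mel92.1, where 0.688% of 14528 genes did, and none in MP41, where 0.241% of 14956 did. At an unadjusted p under 0.05 the counts of these genes were 0 and 0, and DESeq2 and limma voom also called 0 of 10 in each line. Leaving out ASXL2 and BMI1, the 8 other log2 fold changes lay between -0.14 and 0.19 in Mel92.1, within approximate 95% intervals from -0.48 to 0.38. In MP41 they lay between -0.054 and 0.11, with intervals from -0.23 to 0.24. Changes within these intervals are not excluded, and the bounds are not a limit of detection.

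EZH2 measured 57.4, 53.5 and 56.5 CPM with UNC0642 in Mel92.1 and 96.7, 92.7 and 89.1 CPM in MP41, and both sets overlapped their DMSO libraries. BAP1 measured 113, 115 and 117 CPM in Mel92.1 and 101, 94.8 and 96.3 CPM in MP41, again within the range of DMSO or overlapping it. EED was the only 1 of the 10 whose UNC0642 libraries stood clear of DMSO in Mel92.1, at 36.2, 29.8 and 29.2 CPM. That is 1 of 10 genes, in a comparison where 15.4% of all genes had no overlap, and its log2 fold change was 0.19 (SE 0.10, adjusted p = 0.563). Its highest value came from replicate 1, the library with the lowest total, and 0 of 10 genes passed without that library as well. In MP41 0 of the 10 genes stood clear, beside 18.8% of all genes.

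BMI1 and ASXL2 could not be estimated as closely with UNC0642 in Mel92.1. BMI1 had a log2 fold change of -0.50 (SE 0.48, adjusted p = 0.739) and ASXL2 one of -0.32 (SE 0.44, adjusted p = 0.823). In MP41 the same genes stood at 0.08 (SE 0.15) and -0.019 (SE 0.25).

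A366 in Mel92.1 also left the 10 genes without a call. 0 of 10 passed, beside 0.213% of 14528 genes, and 0 had an unadjusted p under 0.05. DESeq2 called 0, and limma voom with quality weights called 2, SUZ12 at 0.25 (adjusted p = 0.0138) and RING1 at -0.15 (adjusted p = 0.0157). The 0.213% is edgeR's share, and voom's share of all genes is not given here, so these 2 calls cannot be set against it. EZH2 measured 57.4, 56.8 and 55.9 CPM and EZH1 14, 16.8 and 15.8 CPM, both above all DMSO libraries. These 2 of 10 genes compare with 15.7% of all genes without overlap, and their log2 fold changes were 0.072 (SE 0.064) and 0.21 (SE 0.17), each with an adjusted p of 1. SUZ12 measured 94.5, 98.6 and 80.5 CPM and BAP1 119, 119 and 124 CPM, both overlapping DMSO. Without the 4 libraries 0 of 10 passed as well, beside 0 of 15232 genes (163 at an unadjusted p under 0.05, 0 of the 10 among them). As labelled, with 2 MP41 libraries in this group, 0 of 14692 genes passed (0%) and 3549 had an unadjusted p under 0.05, 3 of the 10 genes among them.

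A366 in MP41 was the comparison in which Polycomb genes moved. SUZ12, EZH2, JARID2, ASXL1 and ASXL2 fell and RING1 rose, while EZH1, EED, BAP1 and BMI1 did not pass. That made 6 of 10, beside 46.0% of 14956 genes in the same fit, so the share is near the background. 6 of the 10 genes did not overlap DMSO, beside 58.0% of all genes. The median log2 fold change of the 10 was -0.17, and that over all genes 0.02. With the GC and length offset these medians were -0.03 and -0.013.

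SUZ12 measured 82.4, 101 and 76.8 CPM with A366 in MP41, below all 3 DMSO libraries, a log2 fold change of -0.60 (SE 0.092, adjusted p = 0.000633). EZH2 measured 75.1, 71 and 71.7 CPM, also below DMSO, at -0.26 (SE 0.064, adjusted p = 0.00571). JARID2 measured 68, 77.7 and 59.7 CPM, at -0.27 (SE 0.092, adjusted p = 0.0289), just below DMSO in its highest library. The JARID2 call was lost in 5 of 9 fits that left out 1 library: MP41 DMSO replicates 1, 2 and 3 (adjusted p = 0.0638, 0.0674 and 0.0928) and A366 replicates 1 and 3 (0.0927 and 0.0924). EED measured 52, 49.2 and 50.5 CPM and EZH1 15.3, 17.3 and 17 CPM, and both overlapped DMSO, at -0.014 (SE 0.078) and 0.049 (SE 0.09).

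In PR-DUB, ASXL2 had the largest change of the 10. It measured 24.7, 45.2 and 16.1 CPM with A366 in MP41, all below its DMSO libraries, at -1.33 (SE 0.26, adjusted p = 0.00181), a fold of 2.52 lower. ASXL1 measured 86.9, 97.4 and 88.6 CPM and overlapped DMSO, at -0.18 (SE 0.068, adjusted p = 0.0432). Its call was lost in 6 of 9 fits without 1 library, where MP41 DMSO replicates 1 and 3 gave adjusted p = 0.126 and 0.158, UNC0642 replicates 1 and 3 gave 0.0605 and 0.0634, and A366 replicates 1 and 3 gave 0.191 and 0.0958. BAP1 measured 107, 107 and 114 CPM, above DMSO, at 0.13 (SE 0.067, adjusted p = 0.142), which did not pass.

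In PRC1, RING1 measured 99.6, 84.4 and 96.4 CPM with A366 in MP41, above all DMSO libraries, at 0.43 (SE 0.10, adjusted p = 0.00387). BMI1 measured 71.9, 81.6 and 55.5 CPM and overlapped DMSO, at -0.16 (SE 0.15, adjusted p = 0.409).

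The placement of the 4 libraries moved some of these values. As labelled, 5 of the 10 genes passed for A366 in MP41, beside 32.8% of all genes: EZH2 at -0.45, SUZ12 at -0.56, JARID2 at -0.78, ASXL2 at -1.66 and RING1 at 0.40. ASXL1 turned to 0.094 (adjusted p = 0.629). Without the 4 libraries, with A366 replicate 1 as the only library of its arm and its spread taken from the other groups, 6 of 10 passed, beside 35.7% of all genes.

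**Figure D3:**
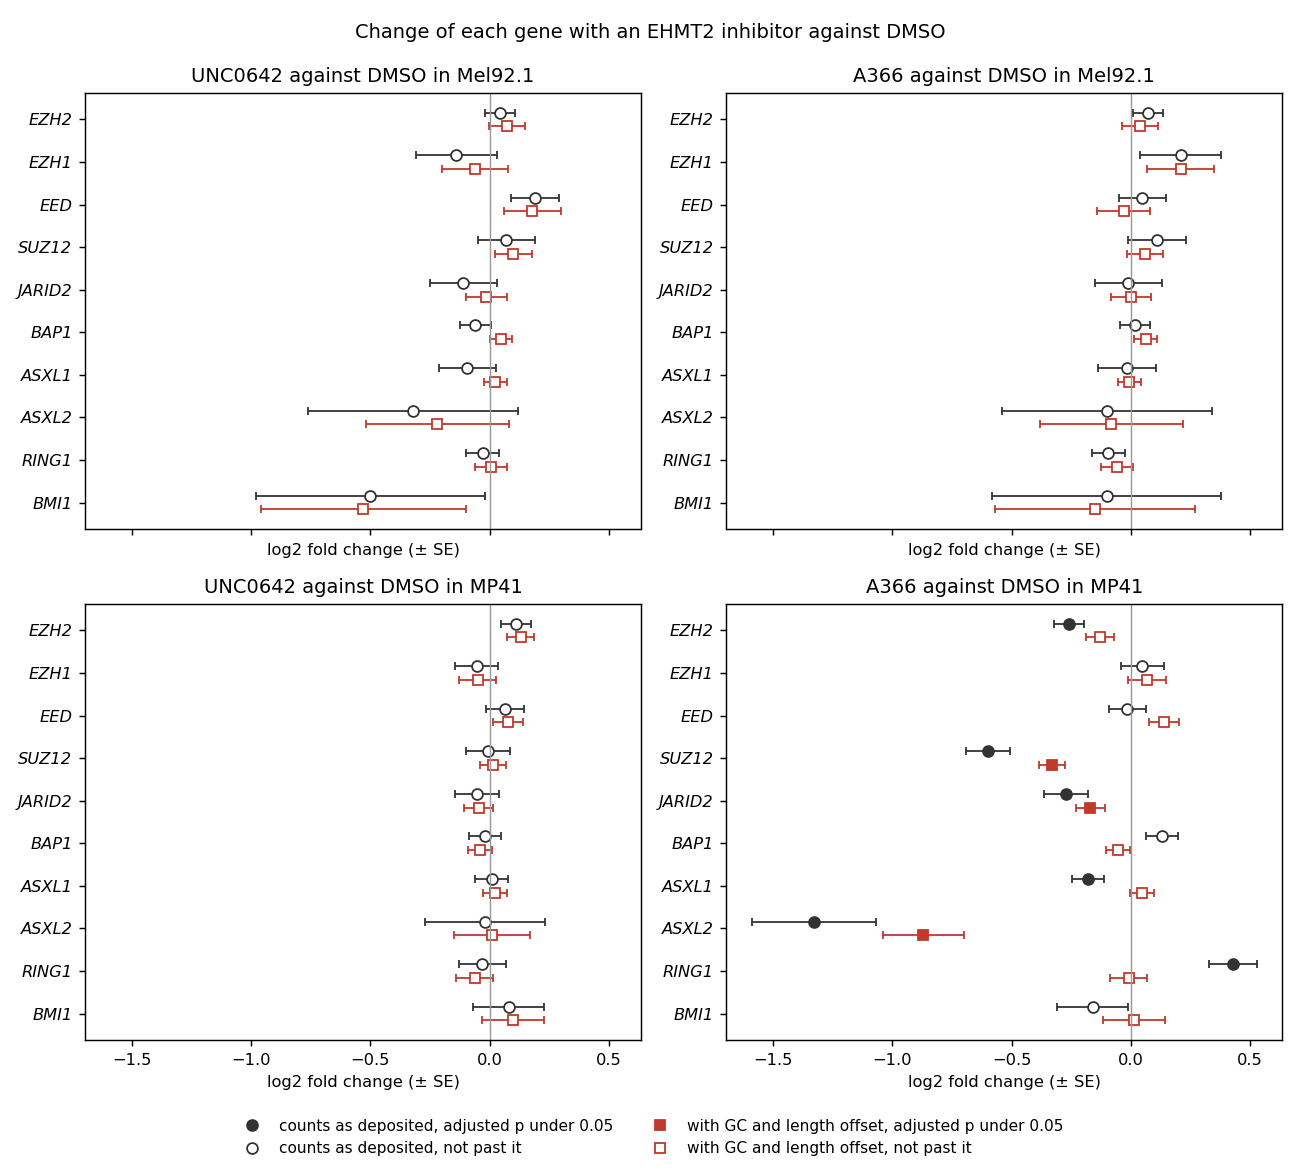
Log2 fold change of each gene against DMSO for each inhibitor and line, with whiskers of 1 SE. Circles use the counts as deposited, squares add the GC and length offset, and filled symbols passed an adjusted p of 0.05. Filled symbols appear for A366 in MP41 alone, where the circles of SUZ12 and ASXL2 lie at -0.60 and -1.33 and their squares at -0.33 and -0.87.

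The MP41 A366 libraries also differed from DMSO in their long and GC-rich transcripts at large. Of 12233 genes outside the 10, the 1224 with the longest transcripts had a median shift in log2 CPM of -0.43, -0.18 and -0.55 in the 3 MP41 A366 libraries relative to MP41 DMSO. The genes richest in GC shifted by 0.40, 0.21 and 0.55. ASXL2, whose longest transcript of 12.88 kb lies at the 98.4th percentile of length, shifted by -1.52, -0.65 and -2.14 in the same libraries. SUZ12, at the 8.06th percentile of GC content, shifted by -0.66, -0.36 and -0.76. RING1, at the 14.7th percentile of length and the 89.9th of GC content, shifted by 0.55, 0.31 and 0.50. The genes poorest in GC shifted by -0.29, -0.18 and -0.42, while EED, at the 0.196th percentile of GC content, had a log2 fold change of -0.014.

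Libraries of the same group in Mel92.1 differed in the same way. With DMSO the long transcripts shifted by 0.25, -0.10 and -0.15 and ASXL2 by 0.95, -0.37 and -0.58. With UNC0642 they shifted by -0.12, -0.12 and 0.091 and ASXL2 by -0.72, -0.48 and 0.45. The coefficient of variation of ASXL2 was 62.6% in Mel92.1 DMSO and 5.96% in MP41 DMSO.

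With the GC and length offset, 3 of the 10 genes passed for A366 in MP41, beside 35.0% of all genes. SUZ12 stood at -0.33 (SE 0.055, adjusted p = 0.00085), ASXL2 at -0.87 (SE 0.17, adjusted p = 0.00185) and JARID2 at -0.17 (SE 0.061, adjusted p = 0.0413). EZH2 was at -0.13 (adjusted p = 0.112), RING1 at -0.0081 (adjusted p = 0.949) and ASXL1 at 0.046 (adjusted p = 0.518). The 18 genes of DNA replication and cell division are known to be expressed in cycling cells, as EZH2 is. Of these, 12 fell and 1 rose for A366 in MP41, beside 46.0% of all genes called. 16 fell and 0 rose with the offset, beside 35.0%. Their part in the fall of EZH2, and that of length and GC content in the changes of the 10 genes, was not tested.

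**Figure D4:**
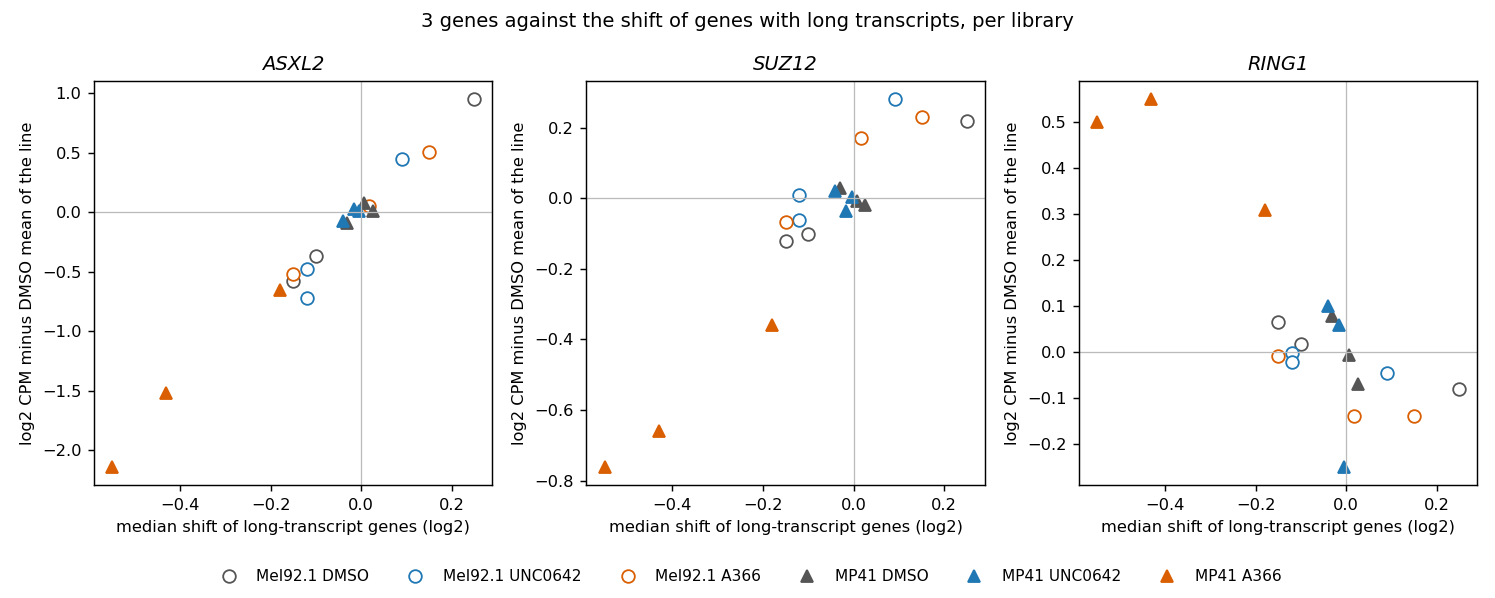
Log2 CPM of ASXL2, SUZ12 and RING1 in each library minus the DMSO mean of its line, against the median shift of the 1224 genes with the longest transcripts. Open circles are Mel92.1 and filled triangles MP41, coloured by condition. The MP41 A366 libraries lie farthest left at -0.43, -0.18 and -0.55, with ASXL2 at -1.52, -0.65 and -2.14 and RING1 at 0.55, 0.31 and 0.50.

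The inhibitors were set against each other at the same dose and time, in 2 comparisons of 10 genes, with p-values adjusted over all genes. In Mel92.1 0 of 10 differed between A366 and UNC0642, beside 0.165% of all genes, 0 at an unadjusted p under 0.05, and 0 by DESeq2 and by limma voom. Outside ASXL2 and BMI1 the differences lay between -0.14 and 0.34, with intervals from -0.33 to 0.68, which do not show that the compounds act alike. In MP41 5 of 10 differed, beside 43.1% of all genes. SUZ12 was lower with A366 than with UNC0642, at -0.60 (SE 0.092, adjusted p = 0.000608), as were EZH2 at -0.37 (SE 0.064, adjusted p = 0.00101) and ASXL2 at -1.31 (SE 0.26, adjusted p = 0.00209). ASXL1 was lower at -0.19 (SE 0.068, adjusted p = 0.0372) and RING1 higher at 0.46 (SE 0.10, adjusted p = 0.00294). The ASXL1 call was lost in 7 of 9 fits without 1 library, all but those without MP41 DMSO replicate 2 or MP41 A366 replicate 2, with adjusted p between 0.0524 and 0.173. JARID2 passed without MP41 A366 replicate 2 (-0.32, adjusted p = 0.00148) or MP41 UNC0642 replicate 2 (-0.28, adjusted p = 0.0495), and BMI1 without MP41 A366 replicate 2 (-0.38, adjusted p = 0.0341). As labelled 5 of 10 differed in MP41, beside 31% of all genes, with JARID2 called at -0.73 (adjusted p = 0.0348) and ASXL1 at 0.085 (adjusted p = 0.668). Without the 4 libraries 6 of 10 differed, beside 34.4%, with JARID2 at -0.25 (adjusted p = 0.0295), and in Mel92.1 0 of 10 differed in edgeR under either placement. With the offset 3 of 10 differed, EZH2 at -0.25, SUZ12 at -0.34 and ASXL2 at -0.88. The share of all genes in that setting is not given, so nothing particular to the 10 is read from this count. UNC0642 and A366 share the DMSO libraries of each line, so their changes against DMSO are not independent of each other.

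Whether the lines responded differently was tested as an interaction, in which a positive value means a higher log2 fold change in Mel92.1. For UNC0642 0 of 10 genes differed, beside 0.601% of 15799 genes, with 0 at an unadjusted p under 0.05 and 0 by DESeq2 and limma voom. For A366 3 of 10 differed, beside 13.8% of all genes: EZH2 by 0.31 (SE 0.081, adjusted p = 0.0205), SUZ12 by 0.68 (SE 0.16, adjusted p = 0.0136) and RING1 by -0.55 (SE 0.12, adjusted p = 0.0112). EZH2 and SUZ12 fell and RING1 rose in MP41, and none of the 3 passed in Mel92.1. With the offset 1 of 10 differed, SUZ12 at 0.39 (adjusted p = 0.0425), beside 3.22% of all genes. As labelled 7 of 10 differed, beside 49.4% of all genes, and without the 4 libraries 0 did, with 3 at an unadjusted p under 0.05. The EZH2 difference was lost in 7 of 18 fits without 1 library, with adjusted p between 0.0501 and 0.06: those without Mel92.1 DMSO replicates 2 and 3, Mel92.1 A366 replicates 1 and 2, MP41 DMSO replicates 2 and 3, and MP41 A366 replicate 3. ASXL2, at 1.21 (SE 0.56, adjusted p = 0.154), passed in 2 such fits, at 1.86 (adjusted p = 0.0131) without Mel92.1 DMSO replicate 1 and at 1.70 (adjusted p = 0.0292) without MP41 A366 replicate 2. DESeq2 called 3 of 10, and limma voom with quality weights called 7 of 10, beside 58.7% of all genes, with ASXL2 at 1.98 (adjusted p = 1.28e-06).

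The promoters of these 3 genes are shown because their responses to A366 differed between the lines. Each is the stretch before the RefSeq start on GRCh38.p14 (up to 250 bases), without bases inside the GENCODE gene, written 5′ to 3′ on the strand of the gene. Capitals mark CCAAT (read as ATTGG on the other strand) and TTTCCCGC, a motif of the E2F type, searched on both strands. These lie at chr7:148884322-148884541 on the minus strand for EZH2, chr17:31936757-31937006 on the plus strand for SUZ12, and chr6:33208250-33208494 on the plus strand for RING1.
EZH2: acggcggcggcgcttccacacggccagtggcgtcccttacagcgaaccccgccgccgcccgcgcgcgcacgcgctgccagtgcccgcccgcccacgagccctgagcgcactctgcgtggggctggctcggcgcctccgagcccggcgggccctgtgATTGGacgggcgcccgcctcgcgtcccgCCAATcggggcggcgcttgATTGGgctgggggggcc
SUZ12: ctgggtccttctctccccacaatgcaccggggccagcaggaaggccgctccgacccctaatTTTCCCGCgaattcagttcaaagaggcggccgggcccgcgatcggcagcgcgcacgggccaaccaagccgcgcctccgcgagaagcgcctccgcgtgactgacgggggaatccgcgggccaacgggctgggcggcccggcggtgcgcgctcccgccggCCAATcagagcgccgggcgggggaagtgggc
RING1: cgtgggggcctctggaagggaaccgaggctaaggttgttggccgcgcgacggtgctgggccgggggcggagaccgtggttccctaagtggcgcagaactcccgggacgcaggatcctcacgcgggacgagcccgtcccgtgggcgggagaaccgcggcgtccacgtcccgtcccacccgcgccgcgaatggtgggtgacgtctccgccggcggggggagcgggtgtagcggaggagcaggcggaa

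The EZH2 stretch held CCAAT 3 times, 94, 66 and 47 bases before the start. That of SUZ12 held TTTCCCGC 189 bases and CCAAT 31 bases before the start, and that of RING1 held neither. Over the 250 bases before the start, CCAAT was found for EZH2, EED, SUZ12 and JARID2, 4 of the 9 genes with an entry, and in 32% of 35116 promoters. TTTCCCGC was found for SUZ12 alone and in 1.39% of promoters, and the second E2F type motif, TTTGGCGC, for none of the 9 and in 0.55%. CCAAT and the E2F motifs share no position in these stretches. The stretches are 78.6%, 72.8% and 73.1% G and C. The matches describe letters and no binding was measured.

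BMI1 shares its sequence with COMMD3-BMI1, a gene annotated for transcripts that run from COMMD3 into BMI1, and the counts moved between these symbols from library to library. With UNC0642 in Mel92.1, BMI1 measured 14.1, 55.6 and 93.2 CPM, and COMMD3-BMI1 64.1, 34.4 and 0 CPM. Their sums were 78.2, 89.9 and 93.2 CPM, so the library lowest in BMI1 was highest in the read-through symbol. That library, replicate 1, had the lowest total of all and 32.8% of its counts on ribosomal RNA genes. The read-through share of the sum ran from 0% to 82% over the 3 Mel92.1 UNC0642 libraries and from 4.39% to 35.4% over the other 15.

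The sum was steadier than BMI1 in each of the 6 groups. Its coefficient of variation was 9.05% with UNC0642 in Mel92.1, against 72.9% for BMI1, and 3.36% against 13.5% in MP41 with DMSO. Summing the symbols, an alternative chosen after seeing the data, put BMI1 lower with A366 in MP41 at -0.33 (SE 0.086, adjusted p = 0.00806), against -0.16 and no call for BMI1 alone. The sum was fitted only in the exchanged placement and without the GC and length offset. With that offset BMI1 alone, at the 12.1th percentile of GC content, stood at 0.015 (SE 0.13, adjusted p = 0.941). The part of length and GC content in the summed change was not tested. In Mel92.1 the summed change with A366 was -0.0026 (SE 0.094, adjusted p = 1). The sums were 77.3, 86.5 and 75.9 CPM with A366 in MP41 and 97, 103 and 97.5 CPM with DMSO, without overlap. Adding the pseudogene SUZ12P1, at 5.17 CPM or less in every library, left SUZ12 at -0.60.

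**Figure D5:**
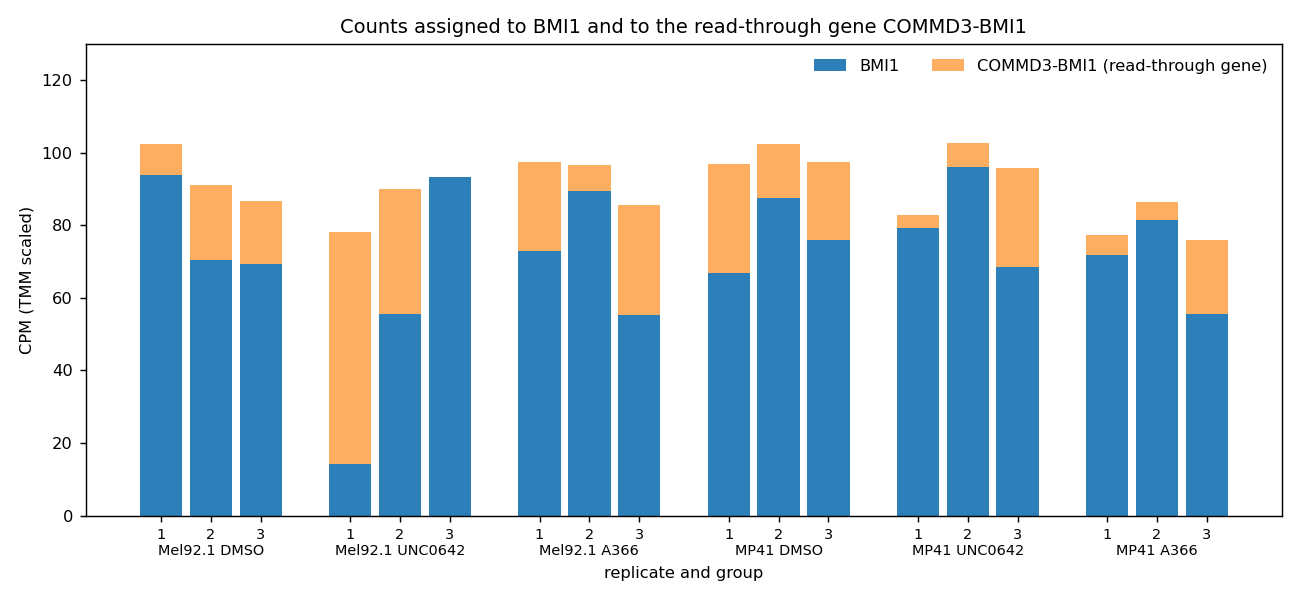
CPM assigned to BMI1 (blue) and to the read-through gene COMMD3-BMI1 (orange), stacked from zero for each library by group and replicate. The split differs most among the Mel92.1 UNC0642 libraries, from 64.1 CPM to 0 CPM on the read-through gene. The 64.1 CPM is that of replicate 1, the library with the lowest total. The stacked heights of all 18 libraries run from 75.9 to 103 CPM.

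44 of 46 other genes of these complexes and of the enzymes opposed to them were in the table, and 43 were tested. They were listed with earlier results of these data known. Of the 43, 0 passed for either inhibitor in Mel92.1 or for UNC0642 in MP41, with 3 (UNC0642), 2 (A366) and 1 at an unadjusted p under 0.05 in edgeR. For A366 in MP41, 5 rose and 21 fell, beside 46.0% of all genes called, with a list median of -0.22 beside 0.02 over all genes. With the offset 3 rose and 11 fell, beside 35.0% of all genes, and as labelled 4 rose and 12 fell, beside 32.8%. The counts of the separate lists that follow stand beside the same 46.0% for A366 in MP41 and 69.4% between the lines, and nothing particular to a list is read from them. ASXL3, the third ASXL gene, had 0 counts in all 18 libraries.

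Of 7 further PRC2 genes tested, 1 rose and 4 fell for A366 in MP41. PHF1, an accessory subunit, rose from 46.7 to 61.8 CPM on average (log2 fold change 0.38, SE 0.077, adjusted p = 0.0022). Its relative MTF2 fell from 42.3 to 30.1 CPM (-0.51, SE 0.075, adjusted p = 0.000532), and LCOR fell from 20.3 to 13.2 CPM (-0.65, SE 0.14, adjusted p = 0.00303). With the offset MTF2 passed at -0.26 (adjusted p = 0.00368), and PHF1 and LCOR did not pass. Between the lines, 2 were higher and 2 lower in Mel92.1. PHF19, the third PHF1 relative, averaged 5.71 CPM in Mel92.1 and 60.5 CPM in MP41 (-3.41, SE 0.14, adjusted p = 4.80e-13), a wider gap than that of any of the 10 genes. The histone binding subunits RBBP4 and RBBP7 were higher in Mel92.1, at 0.33 (SE 0.06) and 0.21 (SE 0.051).

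Of 25 further PRC1 genes, 4 rose and 10 fell for A366 in MP41. CBX8, which binds the PRC2 mark, rose, at 0.67 (SE 0.093, adjusted p = 0.000438). MGA and BCOR, of variant PRC1 complexes, fell, at -0.90 (SE 0.20, adjusted p = 0.00331) and -0.59 (SE 0.11, adjusted p = 0.00131). CBX8, MGA and BCOR passed with the offset in the same direction, at 0.51, -0.41 and -0.49. Between the lines 9 were higher and 10 lower in Mel92.1. CBX2 averaged 106 CPM in Mel92.1 and 41.6 CPM in MP41 (1.35, SE 0.10), and PCGF1 7.33 and 19.1 CPM (-1.38, SE 0.19), and both kept their direction with the offset.

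Of 7 further PR-DUB genes tested, 0 rose and 4 fell for A366 in MP41. HCFC1, a partner of BAP1, fell from 106 to 76 CPM (-0.51, SE 0.10, adjusted p = 0.00169), and the demethylase KDM1B from 52.9 to 39.3 CPM (-0.45, SE 0.089, adjusted p = 0.00189). OGT, the enzyme that attaches N-acetylglucosamine, was lower in Mel92.1 than in MP41, at 68 against 156 CPM (-1.20, SE 0.17, adjusted p = 7.42e-06), and FOXK2 was higher, at 165 against 100 CPM (0.71, SE 0.053). Of 4 enzymes that remove the Polycomb marks, 0 rose and 3 fell for A366 in MP41. MYSM1, an H2A deubiquitinase, fell from 57.6 to 30.4 CPM (-0.95, SE 0.16, adjusted p = 0.00108), and KDM6A, an H3K27 demethylase, from 27.2 to 22.2 CPM (-0.31, SE 0.11, adjusted p = 0.0313). With the offset HCFC1, KDM1B and MYSM1 passed at -0.44, -0.28 and -0.50, and KDM6A did not (-0.036, adjusted p = 0.737). All 4 enzymes that remove the marks were lower in Mel92.1 than in MP41 with DMSO. Among these, MYSM1 stood at -1.09 (SE 0.20) and KDM6B at -0.50 (SE 0.12). With the offset these 2 were at -0.39 and -0.80.

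HOX genes are textbook targets of Polycomb silencing. 39 were in the table and between 29 and 36 were tested, depending on the fit. 1 rose with UNC0642 in Mel92.1, HOXD1 from 75.2 to 106 CPM (0.48, SE 0.073, adjusted p = 0.0146), and 0 fell. In edgeR 0 passed with A366 in Mel92.1 (1 at an unadjusted p under 0.05) and 0 with UNC0642 in MP41 (5 at an unadjusted p under 0.05). For A366 in MP41, 4 of 29 rose and 1 fell, beside 46.0% of all genes called, and with the offset 2 rose and 8 fell, beside 35.0%. HOXD1 rose there from 105 to 169 CPM (0.66, SE 0.066, adjusted p = 9.14e-05) and passed with the offset at 0.31. Between the lines, 12 of 36 were higher and 11 lower in Mel92.1, beside 69.4% of all genes, as with HOXC10 at 0.789 CPM in Mel92.1 and 24.5 CPM in MP41 (-4.97, SE 0.18, adjusted p = 1.71e-13).

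The targets of the inhibitors were measured as well. EHMT2 passed 1 of the 4 comparisons with DMSO, higher with A366 in MP41 at 117 against 98.5 CPM (0.23, SE 0.061, adjusted p = 0.00936), and did not pass there with the offset (0.059, adjusted p = 0.432). EHMT1 was higher in Mel92.1 than in MP41, at 86.7 against 39.9 CPM (1.12, SE 0.091, adjusted p = 6.23e-09), the opposite of the direction of EZH2.

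Finally, the genes whose levels varied most like EZH2 and BAP1 within groups were taken from 13064 genes over the 18 libraries, by Pearson's r of log2 CPM after each group mean was removed. DYNC2LI1 (r = 0.857) and C22orf39 (r = 0.808) were among the nearest to EZH2. FKBP10 (r = 0.896), FAM45B (0.875) and FSD1 (0.858) were nearest to BAP1. These values describe the same libraries, which share depth and the shifts by length and GC content given above.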

How the data were processed

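RNA-seq of 18 libraries (6 groups of 3) was used. The authors deposited expected counts per gene from RSEM, which is named with Bowtie2 2.1.0, RSEM 1.2.15 and hg38 in the submitters' processing notes. The study's methods describe TopHat, the mm10 build and Cufflinks FPKM values instead, a HiSeq instrument and oligo-dT selection, and the series text a NextSeq instrument and removal of ribosomal RNA, so the route to the counts cannot be settled. The methods give strand-specific libraries. Whether RSEM was run with strand is not given in the sources used here, so reads of JARID2 and of its antisense gene JARID2-AS1 (42 counts in all) cannot be told apart. Between 5.85% and 13.4% of values were not whole, and all were rounded. All columns of libraries were used (0 left out).

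Each line's 9 libraries were fitted together, and all 18 for the difference between the lines and in response, with edgeR 4.0.16 in R 4.3.3 (filterByExpr, TMM, glmQLFit, glmQLFTest), Benjamini-Hochberg adjustment over all genes and a threshold of 0.05. Intervals are normal approximations from the SE. Log2 CPM used a prior count of 0.5. Transcript lengths, GC content and gene positions came from GENCODE 29 (GRCh38), with 23899 symbols matched by name, 773 by a synonym and 1803 not found. The GC and length offset used natural splines with 5 degrees of freedom. The identity check used 20 Mel92.1 and 21 MP41 genes at 20 CPM or more in 1 line and 0.05 CPM or less in the other. Promoters came from RefSeq (GRCh38.p14), and 9 of the 10 genes matched. The motifs were chosen after seeing the data.

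The members and lists were chosen with earlier results of these data known, and the exchanged placement likewise. The genes named were all 10 members, up to 2 rises and 2 falls per list and comparison by size among those past the threshold, and the 3 genes most like EZH2 and BAP1. Some genes that this rule names are not reported here. The fits were tested on simulated data with known changes. Alternatives were DESeq2 1.42.0, limma 3.58.1 voom with quality weights, other scaling and filters, overlapping genes summed (added after seeing the data), fewer libraries, other placements, the offset, a replicate block and leaving out each library. Tables and plots were made in Python 3.11.15 (pandas 2.3.3, numpy 2.4.6, matplotlib 3.10.9).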

Additional observations from a re-analysis of the deposited data

Results flagged for a closer look

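3 of the 10 genes had a response to A366 that differed between Mel92.1 and MP41 by a test of the difference itself, in edgeR's quasi-likelihood fit of the 18 libraries. In the same fit 13.8% of all 15799 genes tested passed. The log2 change of Mel92.1 less the one of MP41 was 0.31 for EZH2, 0.68 for SUZ12 and -0.55 for RING1. With the GC and length offset the values of EZH2, SUZ12 and RING1 were 0.16, 0.39 and -0.06. SUZ12 alone passed (adjusted p = 0.0425), beside 3.22% of all genes. Without the 4 exchanged libraries they were 0.29, 0.82 and -0.68, and none passed (adjusted p = 0.248, 0.0549 and 0.0731), with 3 of the 10 genes at an unadjusted p under 0.05. The part of the length and GC shift of the MP41 A366 libraries in these differences was not tested.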

How the results depend on the processing

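For the 9 counts of called genes, DESeq2 kept each within 1.5 times of its value. limma voom with quality weights called 2 for A366 in Mel92.1 (0 in edgeR) and 7 for the difference in response to A366 (3 in edgeR). With the GC and length offset the counts were 3 for A366 in MP41 (from 6), 3 for A366 against UNC0642 in MP41 (from 5) and 1 for the difference in response to A366. With that offset and the replicate block they were 2, 3 and 0, and the replicate block alone gave 4, 4 and 3. The share of all genes called also fell with the offset, from 46.0% to 35.0% for A366 in MP41. For the difference in response to A366 that share fell from 13.8% to 3.22%. The shares for A366 against UNC0642 with the offset, and for the settings with the block, are not given here. Nothing particular to the genes examined is read from these counts or from those that follow. The difference in response to A366 counted 7 genes as labelled, 0 without the 4 libraries and 1 without a composition factor. Deviations from group means correlated above 0.1 in 2 of 18 pairs of libraries with the same replicate number (-0.451 to 0.501). With 3 libraries in a group, these values cannot settle whether replicate numbers pair the libraries. The reason for calls lost under the block was not tested. Leaving out 1 library, the counts ran from 4 to 6 for A366 in MP41, 4 to 7 for A366 against UNC0642 in MP41, 7 to 9 between the lines and 2 to 4 for the difference in response to A366, and stayed at 0 for the 5 others.

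Single genes changed direction as follows. ASXL1 turned for A366 in MP41 to 0.094 as labelled, 0.046 with the offset and 0.046 with the offset and block, and for A366 against UNC0642 to 0.085, 0.023 and 0.022. RING1 turned for A366 in MP41 to -0.0081 with the offset and -0.011 with the block added. Between the lines BAP1 turned to -0.19 and -0.19 and RING1 to -0.20 and -0.20 in the same 2 settings. The causes were not tested. The fits do not exclude changes inside the intervals given for UNC0642, and RNA levels say nothing of protein, histone marks or BAP1 mutations. Symbols that share reads, BMI1 above all, rest on how RSEM split them.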
